A study of Mus musculus with 8 samples.

Results

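The heat shock chaperones described here are 42 genes, found as the entries of the count tables whose Ensembl identifiers carry the listed symbols in GENCODE M21, out of 54838 genes in all. All 42 were found, and 41 of them were among the 12405 genes that passed edgeR's filter on low counts. The exception was *Hspb1*. Molecular chaperones bind proteins that are not yet folded, or have come unfolded, and use cycles of ATP binding and hydrolysis to help them reach their working shape. HSP70 proteins hold short exposed segments with the help of HSP40 (J-domain) partners and nucleotide exchange factors, HSP90 finishes the maturation of many kinases and receptors together with its co-chaperones, and the CCT ring folds actin and tubulin inside a closed chamber. Mitochondria have their own HSP70, HSP90 and chaperonin, and heat shock factor HSF1 raises many of these genes when proteins are damaged by heat or other stress. In leukemic cells, as in other fast-growing cells, constitutive chaperones are among the abundant mRNAs.

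RNA was sequenced from *iMLL-AF9* cells, mouse cells of the C57BL/6 background in which the *MLL-AF9* fusion oncogene is switched on by doxycycline. One group of 4 samples was treated with IOX5, a selective inhibitor of the HIF prolyl hydroxylases that stabilizes HIF-1α, and the other group of 4 with DMSO, the vehicle. The labels give bone marrow, leukaemic stem cells and the genotype WT for both groups, whereas in the series description they are preleukaemic. Neither dose nor duration is stated for these samples, and what the replicate numbers 1 to 4 stand for is not stated either, so it is not known whether the replicates came from separate mice or cultures, and the p-values measure only the spread between these samples. Since RNA was taken from whole populations, fewer cells of a type and less RNA per cell cannot be told apart.

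Between 12343770 and 14116054 reads per DMSO sample and between 11351507 and 12708888 reads per IOX5 sample were counted on genes. Of 10 known HIF target genes, 7 rose with IOX5 past the threshold used throughout (edgeR's quasi-likelihood test, Benjamini-Hochberg adjusted p under 0.05 over all genes tested), namely *Ankrd37*, *Pdk1*, *Pgk1*, *Ldha*, *Bnip3l*, *Bnip3* and *Egln1*, and all 10 did with the replicate number as a blocking term. The leukemic cell genes *Ptprc*, *Hoxa9*, *Meis1* and *Mpo* were present in both groups. The summed level of 9 such genes differed by replicate number, at 2365 to 2941 CPM (counts scaled to a common library size with TMM factors) in the replicates numbered 1 and 2 and 4487 to 5439 CPM in those numbered 3 and 4, with either treatment. *Mpo*, which encodes myeloperoxidase of granulocyte precursors, accounted for this difference in the sum, at 984 to 1565 CPM against 3077 to 3915 CPM. The other 8 genes summed to 1309 to 1546 CPM against 1343 to 1557 CPM. Single genes among them still differed by number, in both directions. *Cd34* was at 23.2 to 40.4 CPM against 133 to 231 CPM, and *Hoxa10* at 58.1 to 80.8 CPM against 29.5 to 33.6 CPM. Same-numbered samples moved together within their groups, so each comparison was also fitted with these numbers as a block (the paired fit). By the fit without a block, 1.25% of all genes tested were called lower with IOX5 and 0.774% higher, and by the paired fit these shares were 9.43% and 11.2%.

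Some leukemic cell genes, and markers of more mature or other blood cells, also moved with the treatment. Of the 9 leukemic cell genes 0 were called without the block. In the paired fit 4 were higher, *Cd34*, *Cebpa*, *Kit* and *Mpo*, where 11.2% of all genes were higher. The summed level of 10 macrophage markers was 166 to 227 CPM with DMSO and 250.1 to 542 CPM with IOX5, highest in IOX5 replicate 2, and of the 8 markers tested 0 were called without the block and 3 were higher in the paired fit. *C1qa*, *C1qb*, *C1qc* and *Vcam1* had means under 3 CPM in both groups. The 10 granulocyte markers summed to 1044 to 1832 CPM with DMSO and 1386 to 2647 CPM with IOX5, again highest in IOX5 replicate 2, and 0 of 10 were called without the block and 7 were higher in the paired fit. The 8 megakaryocyte markers summed to 26.6 to 73.0 CPM with DMSO and 90.9 to 150.2 CPM with IOX5, and of the 6 tested 1, *Vwf*, was called higher without the block and 4 in the paired fit. The 9 mast cell and basophil markers summed to 188 to 725 CPM with DMSO and 329.8 to 1137 CPM with IOX5, and of the 8 tested 0 were called without the block and all 8 were higher in the paired fit. Sums were low for the 9 erythroid markers, at 5.91 to 28.2 CPM against 11 to 43.5 CPM (5 tested, 0 called without the block, 2 higher in the paired fit), and for the 9 lymphoid markers, at 5.15 to 18.4 CPM against 7.21 to 26.5 CPM, where *Nkg7* was the 1 marker tested (higher in the paired fit, not called without the block) and *Cd3g*, *Cd4*, *Cd8a* and *Ms4a1* were at 0 in all samples. The 9 stromal and endothelial markers summed to 85.4 to 169 CPM and 134 to 223 CPM, nearly all of it *Pecam1*, and of the 3 tested 0 were called without the block and 1 was higher in the paired fit. The part of these other cells in the chaperone results was not tested.

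Most chaperone mRNAs were lower with IOX5, by a modest amount, and none was clearly higher. The genes were chosen with earlier results of these data known, so the counts below describe them and are not independent evidence. The median log2 fold change of the 41 genes tested was -0.22, against 0.017 for all 12405 genes, and 37 of 41 (90.2%) lay below 0, against 47.2% of all genes. By the fit without a block 0 of 41 were called in either direction, where 1.25% of all genes were called lower. The smallest adjusted p by edgeR was 0.0576 for *Cct3*, and 19 of 41 had an unadjusted p under 0.05, all of them lower, where 11.2% of all genes were lower with such a p. In the paired fit 19 of 41 fell and 0 rose, where 9.43% of all genes fell. With replicate numbers 1, 2, 3 or 4 left out of the paired fit, 6, 10, 3 and 24 fell, in that order, where 5.28%, 8.2%, 3.23% and 8.48% of all genes fell. DESeq2 without a block called 7 of 41 lower and 0 higher, where it called 4.85% of all genes lower. The 7 were *Hspa8*, *Hspa4*, *Hsph1*, *Cct3*, *Cct7*, *Hspa9* and *Hspd1*.

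Counted by sample, the direction was the same. For 6 of 41 genes every IOX5 sample lay below every DMSO sample, which held for 8.3% of all genes, and for 0 of 41 every IOX5 sample lay above, which held for 5.98% of all genes. Between samples of the same number, 22 of 41 were lower with IOX5 in all 4 pairs, against 19.8% of all genes. Much of the overlap involved IOX5 replicate 4 and DMSO replicate 1. DMSO replicate 1 was the lowest DMSO sample for 34 of 41 genes. IOX5 replicate 4 was the highest IOX5 sample for 36 of 41 genes and reached into or above the DMSO range for 35 of 41, whereas IOX5 replicates 1, 2 and 3 all lay below the DMSO range for 26 of 41, which held for 13.6% of all genes. This count of 3 samples was chosen after the values were seen. Without IOX5 replicate 4, edgeR without a block called 13 of 41 lower, where 2.64% of all genes were called lower, and 11 of the 13 had also fallen in the paired fit. Together the 41 genes took 18009 ± 821 CPM (SD, n = 4) with DMSO and 15231 ± 1722 CPM (SD, n = 4) with IOX5, and by sample 16961, 18949, 17931 and 18197 CPM in DMSO replicates 1 to 4 and 14439.7, 13697, 15124 and 17662 CPM in IOX5 replicates 1 to 4. IOX5 replicate 4 thus lay between DMSO replicates 1 and 3, and the other IOX5 samples lay below all DMSO samples. IOX5 replicate 2, the sample with the highest macrophage and granulocyte sums, was the lowest IOX5 sample for 31 of 41 genes. DMSO replicate 2 likewise had the highest of these sums with DMSO, at 227 and 1832 CPM. It had the highest chaperone sum, however, and was the lowest DMSO sample for 2 of 41 genes. A link between the marker sums and the chaperone genes was not tested.

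**Figure D1:**
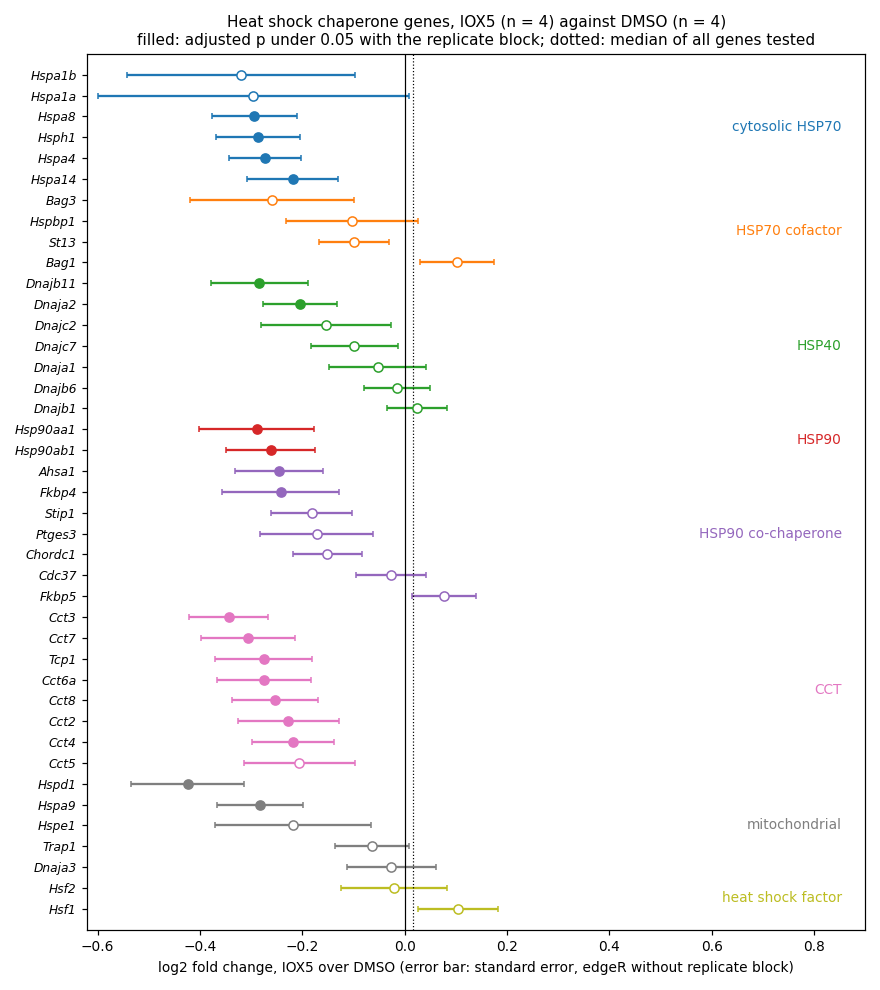
Log2 fold change of IOX5 over DMSO (x axis) for the 41 chaperone genes tested, in order of group, with the standard error from edgeR without a block. Filled points are the 19 genes with an adjusted p under 0.05 in the paired fit, all of them left of 0, and the dotted line is the median of all genes tested, 0.017.

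The study listed *Hspa8*, *Hspa4* and *Hspd1* among transcripts that IOX5 and the loss of HIF move in opposite directions, and *Hspa8*, *Hspa9* and *Dnajb11* among genes lower with IOX5. The loss of HIF was measured in other cells, *Meis1*/*Hoxa9* leukemic cells lacking *Hif1a* and *Hif2a* and exposed to hypoxia. The study used DESeq2, whereas edgeR without a block called none of the listed genes here. The listed genes were picked on the same IOX5 and DMSO samples, so their direction here is not independent evidence.

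The levels with DMSO, compared per kilobase of exon, ran from the abundant *Hsp90ab1* to nearly silent genes. They did not divide by inducibility. The heat-inducible *Hsp90aa1* was among the abundant genes, and *Dnajb1*, an HSP40 of the heat shock response, stood at 18.9 CPM per kb. *Hsp90ab1*, the constitutive HSP90, stood first at 1344 ± 74.2 CPM per kb (SD, n = 4), clear of *Hspa8* at 342 ± 26.5 and *Hspd1* at 341 ± 33.4 CPM per kb, which did not differ beyond their SD. *Cct2* followed at 276 ± 18.5 CPM per kb, then *Hsp90aa1* at 239 ± 17.3 and *Hspa9* at 219 ± 12.3 CPM per kb, whose ranges of 1 SD overlapped. At the other end stood *Hsf1* at 4.83 ± 0.196 CPM per kb, *Hsf2* at 2.19 ± 0.268, *Hspa1b* at 0.859 ± 0.156 and *Hspa1a* at 0.285 ± 0.0328 CPM per kb, each apart from the next by more than 1 SD of both. *Hspb1*, which encodes the small heat shock protein HSP27, was the lowest, with 5 reads in all 8 samples together. Its counts were 1, 2, 1 and 0 in DMSO replicates 1 to 4 and 0, 0, 0 and 1 in IOX5 replicates 1 to 4, all under 3 reads, which corresponds to 0.212 to 0.266 CPM per library. The first 8 genes kept their places with IOX5. These levels divide by the length of all annotated exons of a gene, so a gene with long rarely used exons, such as *Cdc37* or *Fkbp5*, is placed too low.

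**Figure D2:**
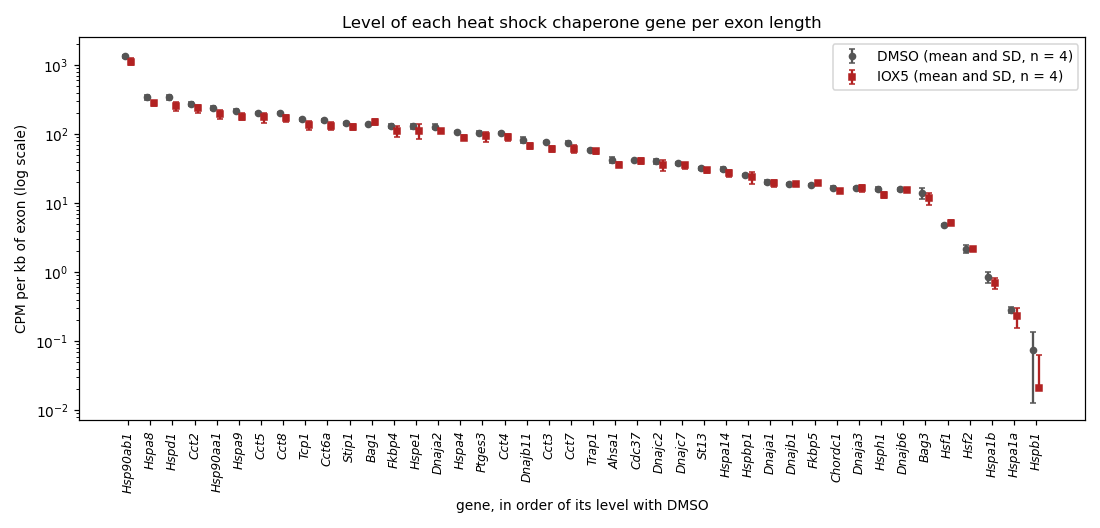
Level of each of the 42 genes in CPM per kb of exon (y axis, log scale) with DMSO (circles) and IOX5 (squares), as mean and SD of 4 samples, in order of the DMSO level. A lower bar is left out where the SD exceeds the mean, as for *Hspb1* with IOX5, and *Hspa1b*, *Hspa1a* and *Hspb1* close the row.

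The mRNAs of the cytosolic HSP70 proteins, which bind unfolded segments of client proteins, were lower as a group (median log2 fold change -0.29), and all 6 genes lay below 0. Of the 6, 0 were called without the block, 4 fell in the paired fit and 3 were called lower by DESeq2. Over all genes, 1.25%, 9.43% and 4.85% were lower by these fits. *Hspa8* encodes HSC70, the constitutive HSP70 of the cytosol (ENSMUSG00000015656; GRCm38 chr9:40800984-40810087, plus strand). It was at 1401, 1638, 1395 and 1449 CPM in DMSO replicates 1 to 4 and 1154, 1131, 1145 and 1367 CPM in IOX5 replicates 1 to 4. The groups did not overlap, but IOX5 replicate 4 lay just under the lowest DMSO sample while the other IOX5 samples lay close together. The log2 fold change was -0.29 (SE, the standard error, 0.0830), a decrease of 18.4%, with an adjusted p by edgeR of 0.0987 without the block and 0.0162 with it. Of the stretches as long as a read (85 bases) in its longest annotated transcript, 36.9% also occur in other annotated transcripts, and reads that fit several places were set aside by the counting, so that the level is uncertain.

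*Hspa4* and *Hsph1* encode members of the HSP110 branch, which release ADP from HSP70. *Hspa4* (GRCm38 chr11:53259814-53300457, minus strand) was at 567, 632, 594 and 585 CPM with DMSO and 481, 463, 474 and 551 CPM with IOX5, in the order of the replicate numbers. *Hsph1* (GRCm38 chr5:149614287-149636376, minus strand) was at 108, 119.8, 116 and 126 CPM with DMSO and 91.2, 86.0, 101 and 107 CPM with IOX5. For both genes every IOX5 sample lay below every DMSO sample, with IOX5 replicate 4 the nearest. The log2 fold change of *Hspa4* was -0.27 (SE 0.0700; edgeR adjusted p 0.0778 without and 0.0160 with the block). That of *Hsph1* was -0.29 (SE 0.0823; edgeR adjusted p 0.103 without and 0.00950 with the block), and *Hsph1* stayed past the threshold in the paired fit without any one of the 4 replicate numbers. *Hspa14*, a ribosome-associated HSP70, was at 117, 129, 134 and 135 CPM with DMSO and 111, 94.2, 113 and 123 CPM with IOX5. Its IOX5 replicate 4 lay among the DMSO samples and the others below them, with a log2 fold change of -0.22 (SE 0.0892; edgeR adjusted p 0.215 without and 0.0434 with the block). Exons of *Hspa14* overlap those of *Gm45902* on the same strand, and reads in the overlap may be counted for neither.

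The stress-inducible HSP70 genes *Hspa1a* and *Hspa1b* were barely expressed in either group. *Hspa1b* was at 1.98, 2.41, 3.01 and 2.24 CPM in DMSO replicates 1 to 4 and 1.68, 2.40, 1.64 and 2.0 CPM in IOX5 replicates 1 to 4. *Hspa1a* was at 0.706, 0.856, 0.894 and 0.926 CPM with DMSO and 0.561, 0.444, 0.782 and 0.954 CPM with IOX5. The groups overlapped for both genes, with adjusted p-values by edgeR of 0.464 and 0.645. Their sequences are near-identical (53.5% of the read-length stretches of *Hspa1b* and 59.8% of those of *Hspa1a* are shared). Reads that fit several places were set aside by the counting, so both levels and their sum are likely too low. Summed, they came to 0.0019 to 0.0028 of the *Hspa8* level with DMSO and 0.0019 to 0.0025 with IOX5, and the log2 ratio differed by -0.017 (exact two-sided permutation test over 70 assignments, p = 0.857; adjusted over 4 ratios, 0.857).

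Promoter windows of RefSeq on GRCm38.p6, reaching from 250 bases before the annotated start to 50 bases after it, were found for 34 of the 42 genes, and *Hspa8*, *Hsp90aa1*, *Hsp90ab1*, *Cct4*, *Dnajc2*, *Hsf1*, *Hspa9* and *St13* had no entry. HSF1 binds heat shock elements, which repeat the unit GAA and its complement TTC in alternation with 2 bases between them. The pair of units GAANNTTC, which reads the same on both strands, occurs in a window of 12 of the 34 genes, against 9.04% of the 27025 genes in the table. The stricter form with 3 alternating units, searched on both strands and including the pair, occurs in a window of 5 of the 34 genes (*Hsph1*, *Hspd1*, *Hspe1*, *Dnajb6* and *Chordc1*), against 0.662% of all genes. The HIF core motifs ACGTG and GCGTG, searched on both strands, occur in a window of 27 of the 34 genes, against 46.7% of all genes. These shares include genes that did not pass the filter on low counts. No share among expressed genes was computed, so the comparison does not show enrichment at chaperone genes. The windows of *Hspa1b*, nearly silent in these cells, and of *Hsph1*, expressed and lower with IOX5, are shown to set these elements beside the expression values, with the heat shock elements in capitals.
Hspa1b promoter (GRCm38.p6 chr17:34959189-34959488, minus strand): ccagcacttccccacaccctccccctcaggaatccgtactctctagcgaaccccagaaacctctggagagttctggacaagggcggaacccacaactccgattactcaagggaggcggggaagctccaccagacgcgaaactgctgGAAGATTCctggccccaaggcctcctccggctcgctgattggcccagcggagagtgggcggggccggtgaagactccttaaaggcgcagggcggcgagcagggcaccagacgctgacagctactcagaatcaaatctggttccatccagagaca
Hsph1 promoter (GRCm38.p6 chr5:149636266-149636565, minus strand): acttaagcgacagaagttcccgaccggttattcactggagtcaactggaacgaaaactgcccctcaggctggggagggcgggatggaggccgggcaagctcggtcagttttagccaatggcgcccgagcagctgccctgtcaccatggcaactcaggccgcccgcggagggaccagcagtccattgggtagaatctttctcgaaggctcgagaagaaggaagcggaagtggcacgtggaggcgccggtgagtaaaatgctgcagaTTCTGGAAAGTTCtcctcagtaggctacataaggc
The capitals mark 1 pair of units 104 bases before the start in *Hspa1b* and 1 element of 3 units just after the start in *Hsph1*. Both *Hspa1a* and *Hspb1* also hold pairs of units, 1 and 2 of them, and like *Hspa1b* were close to undetected. Genes with a pair of units (11 tested) had a median log2 fold change of -0.24 and those without (22 tested) of -0.19.

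Cofactors that act on the nucleotide cycle of HSP70 had mostly small fold changes. Of *Hspbp1*, *Bag1*, *Bag3* and *St13*, 0 of 4 passed the threshold in either fit, and the median log2 fold change was -0.10. *Bag3*, which links HSP70 to selective autophagy, had the smallest p. It was at 34.8, 45.2, 33.0 and 30.4 CPM with DMSO and 26.3, 37.6, 25.5 and 30.5 CPM with IOX5. Both groups were highest in replicate 2 and overlapped, with a log2 fold change of -0.26 (SE 0.160) and adjusted p-values by edgeR of 0.407 without and 0.0510 with the block. *Hspbp1*, an exchange factor, and *St13* (HIP), which stabilizes the ADP-bound form of HSP70, had log2 fold changes of -0.10 and -0.10. *Bag1*, another exchange factor, was the one cofactor above 0, at 0.10, and was below 0 once fold changes were corrected for gene length and GC content.

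HSP40 proteins deliver clients to HSP70 and start its ATP hydrolysis. Their median log2 fold change was -0.098, and 6 of 7 lay below 0, against 47.2% of all genes. In the paired fit 2 of 7, *Dnajb11* and *Dnaja2*, fell, where 9.43% of all genes fell. *Dnajb11*, which works in the endoplasmic reticulum with BiP rather than in the cytosol, was at 256, 312, 249 and 259 CPM with DMSO and 211, 244, 196 and 231 CPM with IOX5. DMSO replicate 2 stood high and its IOX5 partner was also the highest of its group, and the groups did not overlap. Its log2 fold change was -0.28 (SE 0.0947), with adjusted p-values by edgeR of 0.145 without and 0.00780 with the block. *Dnaja2*, a partner of HSC70 in the cytosol, was at 354, 423, 376 and 371 CPM with DMSO and 318, 343, 310.0 and 351 CPM with IOX5. Its groups stood apart by a narrow margin at IOX5 replicate 4. The log2 fold change was -0.21 (SE 0.0723; edgeR adjusted p 0.162 without and 0.0420 with the block). The remaining 5, *Dnaja1*, *Dnajb1*, *Dnajb6*, *Dnajc2* and *Dnajc7*, had log2 fold changes from -0.15 for the ribosome-bound *Dnajc2* to 0.02 for *Dnajb1*, the best known HSP40 of the heat shock response, and none passed in either fit.

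Both HSP90 genes lay below 0 (median -0.28). Both fell in the paired fit, where 9.43% of all genes fell, but neither was called without the block. *Hsp90ab1* (GRCm38 chr17:45567775-45573271, minus strand) was at 3888, 4356, 3887 and 3986 CPM in DMSO replicates 1 to 4 and 3137, 3013, 3380.0 and 3910.0 CPM in IOX5 replicates 1 to 4. IOX5 replicate 4 lay above the 2 lowest DMSO samples and the other IOX5 samples below all of them. The log2 fold change was -0.26 (SE 0.0875), a decrease of 16.6% of the most abundant chaperone mRNA, with adjusted p-values by edgeR of 0.146 without and 0.0355 with the block. *Hsp90aa1*, the heat-inducible HSP90 (GRCm38 chr12:110690605-110702728, minus strand), was at 841, 949.5, 969 and 995 CPM with DMSO and 727, 642, 769 and 935 CPM with IOX5. Here DMSO replicate 1 and IOX5 replicate 4 made the groups overlap. Its log2 fold change was -0.29 (SE 0.112; edgeR adjusted p 0.197 without and 0.0170 with the block), and 51.1% of its read-length stretches also occur in other annotated transcripts. The ratio of the inducible to the constitutive form was 0.216 to 0.250 with DMSO and 0.213 to 0.239 with IOX5, and the log2 ratio differed by -0.032 (exact two-sided permutation test, p = 0.657; adjusted over 4 ratios, 0.857).

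Among the co-chaperones of HSP90, 6 of 7 lay below 0, against 47.2% of all genes, and the median was -0.17. In the paired fit 2 of 7, *Ahsa1* and *Fkbp4*, fell, where 9.43% of all genes fell. *Ahsa1*, which stimulates the ATPase of HSP90, was at 166, 209, 184 and 188 CPM with DMSO and 149, 156, 150.0 and 177 CPM with IOX5. Only IOX5 replicate 4 reached above the lowest DMSO sample, and the log2 fold change was -0.24 (SE 0.0862; edgeR adjusted p 0.162 without and 0.0262 with the block). *Fkbp4*, the immunophilin FKBP52, which helps steroid receptors to bind hormone, was at 339, 359.5, 380.2 and 382 CPM with DMSO and 292, 253, 309.8 and 381 CPM with IOX5. IOX5 replicate 4 lay among the highest DMSO samples, and the log2 fold change was -0.24 (SE 0.115; edgeR adjusted p 0.280 without and 0.0336 with the block). *Stip1*, the adaptor between HSP70 and HSP90, *Ptges3* (p23), *Chordc1* and the kinase adaptor *Cdc37* had log2 fold changes of -0.18, -0.17, -0.15 and -0.03, and none passed in either fit.

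*Fkbp5*, the immunophilin FKBP51, which counteracts FKBP52 at steroid receptors, was the one co-chaperone above 0, with a log2 fold change of 0.08 that did not pass (edgeR adjusted p 0.532 without and 0.426 with the block). The ratio of *Fkbp5* to *Fkbp4* was 0.514, 0.472, 0.465 and 0.463 in DMSO replicates 1 to 4 and 0.634, 0.666, 0.646 and 0.480 in IOX5 replicates 1 to 4. It was higher with IOX5 in 4 of 4 pairs, but in replicate 4 by very little, so that the groups overlapped. The log2 ratio differed by 0.33 (exact two-sided permutation test, p = 0.0571; adjusted over 4 ratios, 0.114), and by 0.44 without IOX5 replicate 4 (p = 0.0286, the smallest p that the exact permutation test allows).

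**Figure D3:**
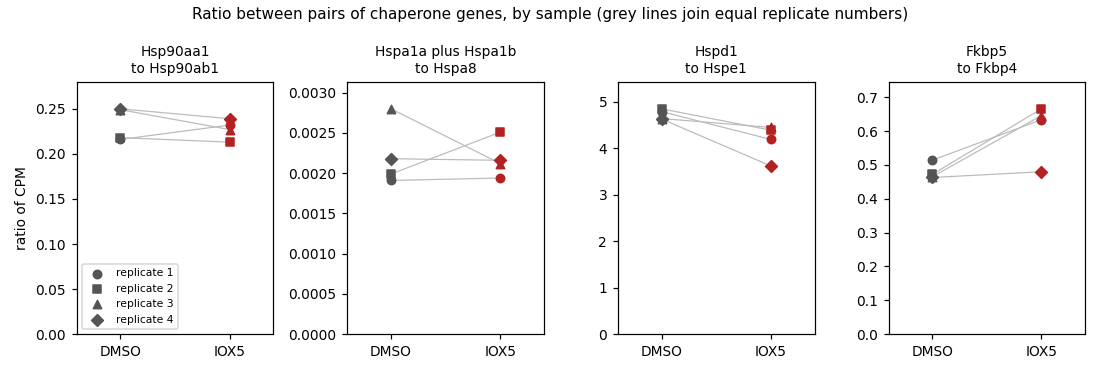
Ratio of CPM (y axis, from 0) between pairs of chaperone genes in each sample, with grey lines between samples of the same replicate number. The ratio of *Hspd1* to *Hspe1* is lower with IOX5 in 4 of 4 pairs and that of *Fkbp5* to *Fkbp4* higher in 4 of 4 pairs, and the other ratios go both ways.

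The CCT chaperonin is a double ring in which each ring holds 1 copy of each of 8 different subunits. All 8 subunit genes lay below 0, with a median log2 fold change of -0.26. In the paired fit 7 of 8 fell, all but *Cct5* (edgeR adjusted p 0.0688), where 9.43% of all genes fell. Without the block 0 of 8 were called, and DESeq2 called 2, *Cct3* and *Cct7*. The log2 fold changes ran from -0.34 to -0.21, with an SD of 0.047 over the 8 subunits. A narrow spread was not particular to CCT, since those of the 6 cytosolic HSP70 genes ran from -0.32 to -0.22. The CCT levels per kilobase with DMSO differed 3.66-fold, from 75.4 CPM per kb for *Cct7* to 276 CPM per kb for *Cct2*. *Cct3*, which had the smallest p of all 41 genes (GRCm38 chr3:88297116-88321767, plus strand), was at 477, 507, 479 and 509.6 CPM in DMSO replicates 1 to 4 and 372, 348, 392 and 442 CPM in IOX5 replicates 1 to 4. Every IOX5 sample lay below every DMSO sample. Its log2 fold change was -0.34 (SE 0.0775), a decrease of 21.2%, with adjusted p-values by edgeR of 0.0576 without and 0.00409 with the block, and it stayed past the threshold in the paired fit without any one of the 4 numbers. Its window, shown as an example of a CCT promoter, holds no heat shock element of either form, so the whole of it is in lower case, and holds 2 HIF core motifs.
Cct3 promoter (GRCm38.p6 chr3:88296885-88297184, plus strand): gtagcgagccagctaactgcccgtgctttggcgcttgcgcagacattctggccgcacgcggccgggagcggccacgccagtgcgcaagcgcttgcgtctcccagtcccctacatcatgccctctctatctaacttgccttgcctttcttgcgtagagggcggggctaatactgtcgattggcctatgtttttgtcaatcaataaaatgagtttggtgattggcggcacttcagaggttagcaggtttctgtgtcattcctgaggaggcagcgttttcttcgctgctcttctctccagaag

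*Cct7* was at 479, 515, 536 and 514 CPM with DMSO and 381, 367, 420.1 and 485 CPM with IOX5. *Tcp1*, the subunit for which the complex was first named, was at 773, 838, 839.8 and 840.0 CPM with DMSO and 652, 579.5, 685 and 802 CPM with IOX5. *Cct6a* was at 537, 598, 596 and 574 CPM with DMSO and 453, 416, 476 and 561 CPM with IOX5. In each of these subunits IOX5 replicates 1 to 3 lay below the DMSO samples and IOX5 replicate 4 just above the lowest of them, DMSO replicate 1. *Cct8* was at 586, 633, 641 and 631 CPM with DMSO and 498, 465, 519.5 and 607 CPM with IOX5. *Cct2* was at 654, 677, 754 and 735 CPM with DMSO and 572, 513, 621 and 703 CPM with IOX5, and *Cct4* at 413, 454, 444 and 441 CPM with DMSO and 369, 330.3, 379.6 and 428 CPM with IOX5. The same pattern held, with IOX5 replicate 4 inside the DMSO range. *Cct5* was at 540.3, 569.8, 558 and 573 CPM with DMSO and 447, 413, 482 and 603 CPM with IOX5, and IOX5 replicate 4 was the highest of all 8 samples. The log2 fold changes of *Cct7*, *Tcp1*, *Cct6a*, *Cct8*, *Cct2*, *Cct4* and *Cct5* were -0.31, -0.28, -0.27, -0.25, -0.23, -0.22 and -0.21. Their adjusted p-values by edgeR ran from 0.111 to 0.330 without the block and, for the 6 that fell, from 0.00944 to 0.0457 with it. Exons of *Tcp1*, *Cct6a*, *Cct7* and *Cct8* lie opposite exons of other genes, and the strand setting of the counting is not stated.

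**Figure D4:**
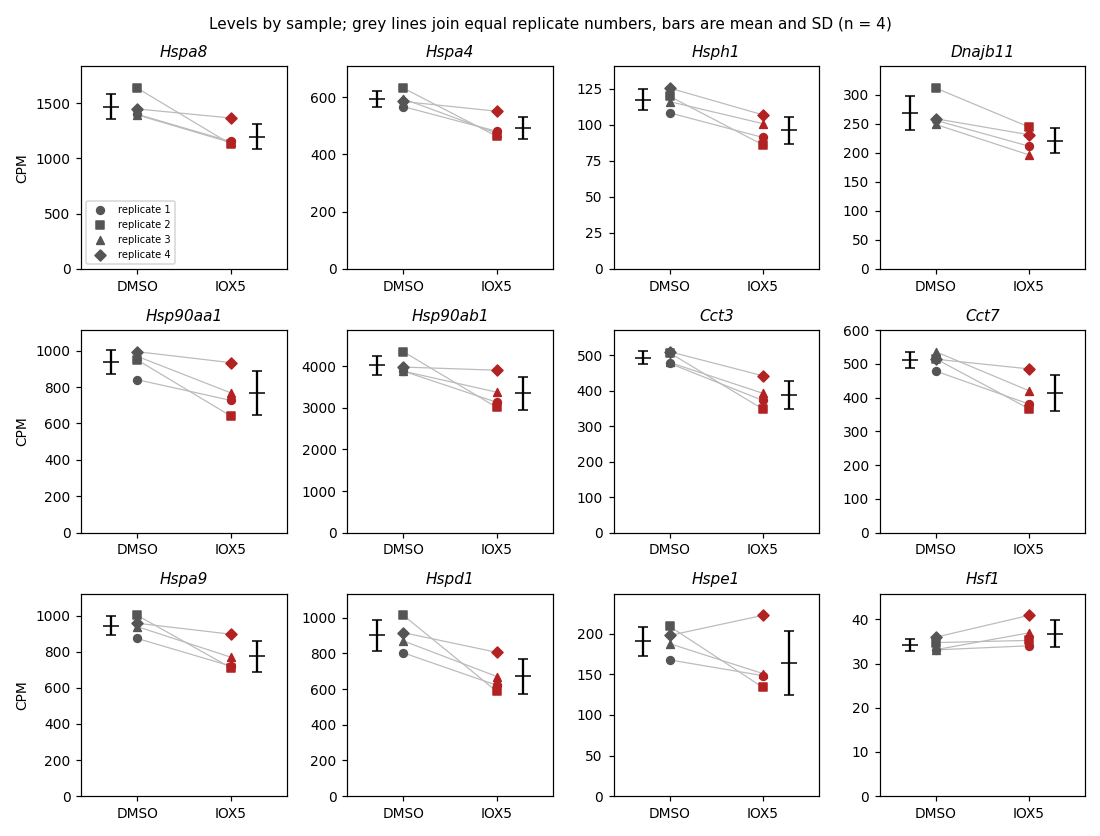
CPM (y axes, from 0) of 12 chaperone genes in each sample, with grey lines between samples of the same replicate number and bars for mean and SD (n = 4 each). In the 10 panels from *Hspa8* to *Hspd1* every line falls, and IOX5 replicate 4 (diamond) is the highest IOX5 sample in all of them but *Dnajb11*.

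In mitochondria, HSP60 and its lid HSP10 form the chaperonin and the mitochondrial HSP70 pulls in and folds imported proteins. The 5 genes were all below 0, with a median log2 fold change of -0.22. Of the 5, 0 were called without the block and *Hspd1* and *Hspa9* fell in the paired fit, where 9.43% of all genes fell. *Hspd1*, which encodes HSP60, had the largest decrease of all 41 genes. It was at 803, 1013, 869.8 and 916 CPM in DMSO replicates 1 to 4 and 621, 587, 670.3 and 806 CPM in IOX5 replicates 1 to 4. IOX5 replicate 4 lay just above DMSO replicate 1 and the others well below. The log2 fold change was -0.42 (SE 0.110), a decrease of 25.5%, with adjusted p-values by edgeR of 0.0799 without and 0.00425 with the block. It stayed past the threshold in the paired fit without any one of the 4 numbers, and 30.7% of its read-length stretches also occur in other annotated transcripts. *Hspa9*, the mitochondrial HSP70 called mortalin, was at 873, 1001, 939 and 957 CPM with DMSO and 721, 712, 769.7 and 897 CPM with IOX5. The overlap again came from IOX5 replicate 4 and DMSO replicate 1, and the log2 fold change was -0.28 (SE 0.0846; edgeR adjusted p 0.113 without and 0.0147 with the block). *Trap1*, the mitochondrial HSP90, and *Dnaja3*, a J-domain partner of mortalin, had log2 fold changes of -0.06 and -0.03 and passed in neither fit.

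*Hspe1*, which encodes HSP10, lies head to head with *Hspd1*. It was at 168, 209, 188 and 198 CPM in DMSO replicates 1 to 4 and 148, 134, 151 and 222 CPM in IOX5 replicates 1 to 4. IOX5 replicate 4 was the highest of all 8 samples and the other IOX5 samples were the lowest. The log2 fold change was -0.22 (SE 0.153; edgeR adjusted p 0.467 without and 0.104 with the block), and -0.40 without IOX5 replicate 4 (edgeR adjusted p 0.0498 without a block). The ratio of *Hspd1* to *Hspe1* was 4.79, 4.85, 4.64 and 4.63 in DMSO replicates 1 to 4 and 4.19, 4.39, 4.45 and 3.62 in IOX5 replicates 1 to 4. Every IOX5 sample lay below every DMSO sample. The log2 ratio differed by -0.19 (exact two-sided permutation test, p = 0.0286, which is the smallest possible for 4 samples against 4), which did not pass after adjustment over 4 ratios (0.114), and it was -0.12 without IOX5 replicate 4. Counting each gene by strand matters here, since the annotated first exons of these genes overlap on opposite strands.

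The window of *Hspe1* is shown because it overlaps a window of *Hspd1*, which is transcribed in the opposite direction. *Hspd1* lies at GRCm38 chr1:55077835-55088243, minus strand, and *Hspe1* at chr1:55088132-55091307, plus strand. The RefSeq window of *Hspe1* shares 285 of its 300 bases with a window of *Hspd1*, and the capitals mark overlapping heat shock elements of 3 units, which run from 89 to 72 bases before the *Hspe1* start. Another RefSeq window of *Hspd1*, at chr1:55088194-55088493, spans the end of the annotated gene at 55088243, where its transcription starts. That window holds no heat shock element of either form.
Hspe1 promoter (GRCm38.p6 chr1:55087898-55088197, plus strand): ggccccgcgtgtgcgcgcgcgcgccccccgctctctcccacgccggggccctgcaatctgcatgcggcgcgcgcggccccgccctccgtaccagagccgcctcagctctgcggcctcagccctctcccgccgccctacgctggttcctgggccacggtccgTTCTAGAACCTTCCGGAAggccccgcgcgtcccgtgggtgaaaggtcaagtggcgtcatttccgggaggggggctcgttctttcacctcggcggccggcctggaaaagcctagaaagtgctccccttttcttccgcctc

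**Figure D5:**
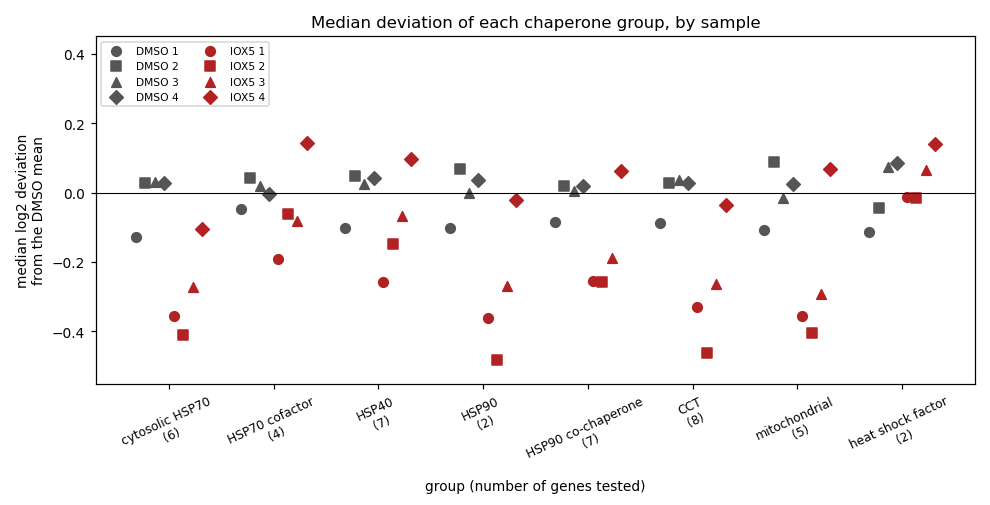
Median log2 deviation (y axis) of the genes of each group from their mean in the DMSO samples, by sample, with DMSO in grey and IOX5 in red and 1 symbol for each replicate number. For cytosolic HSP70, HSP90, CCT and the mitochondrial genes, IOX5 replicates 1, 2 and 3 lie at or below -0.26, while IOX5 replicate 4 lies between -0.11 and 0.068.

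Neither heat shock factor passed in either fit. *Hsf1*, the main activator of heat shock genes, was at 33.1, 34.8, 33.1 and 36 CPM with DMSO and 34.0, 35.3, 37.0 and 40.9 CPM with IOX5. Every IOX5 sample was above its DMSO partner, the groups overlapped, and the log2 fold change was 0.10 (SE 0.0782; edgeR adjusted p 0.50 without and 0.366 with the block). *Hsf2*, a related factor that can pair with HSF1, had a log2 fold change of -0.02 (edgeR adjusted p 0.934 without and 0.926 with the block).

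Chaperone genes outside the 42 lay closer to the median of all genes. Both the 42 genes and these other lists were chosen with earlier results of these data known, so this contrast is a description only. Of 112 other chaperone genes in 7 lists, 89 were tested, with a median log2 fold change of -0.035 and 49 of 89 (55.1%) below 0. Without the block 0 were called lower and 1 higher. In the paired fit 4 fell and 6 rose, where 9.43% of all genes fell and 11.2% rose. The gene called higher was *Pdrg1*, a subunit of a prefoldin-like complex. It was at 54.4, 54.2, 48.8 and 50.3 CPM with DMSO and 65.0, 66.5, 64.4 and 71.4 CPM with IOX5, with no overlap, and its log2 fold change was 0.36 (SE 0.0630; edgeR adjusted p 0.0311 without and 0.00311 with the block). The 12 tested genes of prefoldin, which hands unfolded actin and tubulin to CCT, and of its partners had a median of 0.0014, beside -0.26 for CCT itself.

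Within the same HSP70 and HSP90 families, 6 of 9 other genes were tested and 5 of 6 lay below 0, with a median of -0.15 and 0 passing in either fit. The smallest p was that of *Hspa5*, which encodes BiP, the HSP70 of the endoplasmic reticulum (log2 fold change -0.17, edgeR adjusted p 0.158 without and 0.0951 with the block). The 34 other J-domain genes tested had a median of -0.0039, with 0 called without the block and 2 lower and 4 higher in the paired fit. In that fit 9.43% of all genes were lower and 11.2% higher, which also applies to the counts for the lists that follow. The smallest p among the J-domain genes was that of *Dnajb9* of the endoplasmic reticulum (0.39, edgeR adjusted p 0.0883 without and 0.00607 with the block). Among 24 other cofactors of HSP70 and HSP90 the median was 0.0098, with 0 called without the block and 2 lower and 1 higher in the paired fit, and *Hsbp1*, which encodes a protein that binds HSF1, came closest (0.29, edgeR adjusted p 0.050, just over the threshold, and 0.00713 with the block). Of 11 other genes of mitochondrial protein quality control, 9 lay below 0 and 0 passed in either fit, with the smallest p for the protease gene *Afg3l2* (-0.13, edgeR adjusted p 0.215 without and 0.138 with the block). Other small heat shock proteins were mostly too low to test (2 of 10 tested, the smaller p being that of *Hspb11* at 0.738 by edgeR), as were 5 other heat shock factor genes (0 tested). Of 13 immediate-early genes, which rise within minutes of handling stress, 12 were tested and 0 were called without the block, with 1 lower and 2 higher in the paired fit. The smallest p was that of *Ier3* (0.80, edgeR adjusted p 0.0625 without and 0.000329 with the block).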

How the data were processed

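RNA-seq counts of 8 samples (DMSO, n = 4; IOX5, n = 4) were used, grouped by the treatment in the labels. According to the study's methods and processing notes, poly(A) RNA went into directional libraries, and the authors trimmed single-end reads with cutadapt 1.18, mapped them to GRCm38 with HISAT2 2.2.1 and deposited raw read counts per Ensembl gene from HTSeq 2.0.1. A release is named for the HISAT2 index but not for the annotation used in counting, and the strand setting is not stated, although the deposited count tables are named as reverse. The 5 summary lines of each file, 20.7% to 22.6% of reads, were left out of library sizes. Names, coordinates and lengths came from GENCODE M21. In R 4.3.3, edgeR 4.0.16 kept 12405 genes (filterByExpr), applied TMM factors (0.988 to 1.03) and tested IOX5 against DMSO by the quasi-likelihood test, with Benjamini-Hochberg adjustment over all genes tested and a threshold of 0.05. The fit was repeated with the replicate number as a block, because the deviations of same-numbered samples from their group means correlated at 0.758, 0.744, 0.732 and 0.636 for numbers 1 to 4. Numbers 3 and 4 were not told apart from each other (DMSO replicate 4 with IOX5 replicate 3, 0.685, and DMSO replicate 3 with IOX5 replicate 4, 0.617), and the other correlations between different numbers were at most 0.212. Other alternatives were DESeq2 1.42.0, RLE and upper-quartile factors, other filters, thinned counts, removal of a length and GC trend, and each sample left out. Ratios were compared by exact permutation. No pair of libraries agreed within sampling noise (chi-square per degree of freedom 2.19 to 41.7). The edgeR fits, with and without the block, and DESeq2 were run on simulated counts with known changes. The exact permutation was checked on a case with a known answer, and the other steps were not tested in this way. Every member is named. Values in every sample are given for those past the threshold in either fit, for *Hspa8* and for the smallest p in each group, and other members are given by range and counts. Of the other chaperone and immediate-early lists, each gene past the threshold without the block is named or, where there was none, the gene with the smallest p. HIF target and cell type marker lists are given by counts and sums. The remaining CCT subunit, *Hspe1*, *Hspa1a* and *Hspa1b* were added after their values were seen. Members and lists were chosen with earlier results of these data known.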

Additional observations from a re-analysis of the deposited data

Results flagged for a closer look

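Of 108 groups of 4 values (41 genes, 9 sums and 4 ratios, in each treatment), 9 had 1 sample far from the others by Dixon's criterion, which chance alone meets in about 1 of 20 groups. IOX5 replicate 4 was the sample far above the others in 5 of them. *Hspa8* was at 1367 CPM in that sample and 1131 to 1154 CPM in the other IOX5 samples. *Dnajb1* was at 66.3 CPM against 59.7 to 60.3 CPM. The cytosolic HSP70 genes summed to 2151 CPM against 1778 to 1839 CPM, the HSP70 cofactors to 658 CPM against 557 to 558 CPM, and the HSP40 genes to 1361 CPM against 1173 to 1191 CPM. DMSO replicate 1 was far below the other DMSO samples in 3 groups, with *Dnajc2* at 175 CPM against 209.6 to 214 CPM, *Tcp1* at 773 CPM against 838 to 840.0 CPM and the CCT genes summed at 4459 CPM against 4791 to 4849 CPM. DMSO replicate 2 was far above the others for *Dnajb11*, at 312 CPM against 249 to 259 CPM. The values of a gene and of the sum that holds it are not separate observations.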

How the results depend on the processing

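The median log2 fold change of the chaperone genes was negative under every alternative run, and 0 of them were called higher under any. The count called lower moved from 0 to 7 with DESeq2, 19 with the replicate block, 23 with the block and the length and GC trend removed, and 4 at an adjusted p under 0.1, and it stayed at 0 with RLE or upper-quartile factors, no filter, at least 10 counts in every sample, thinned counts, or the trend removed without the block. Over all genes, the calls were 602 lower and 489 higher with DESeq2, 1170 and 1394 with the block, 1675 and 1186 with the block and the trend removed, 486 and 332 at an adjusted p under 0.1, and 73 lower without a filter. With each sample left out in turn, 0 to 13 chaperone genes were called lower (13 without IOX5 replicate 4, 0 without any other sample), 0 to 333 of all genes lower and 0 to 130 higher. With each replicate number left out of the paired fit, 3 to 24 chaperone genes fell (6 without number 1, 10 without 2, 3 without 3 and 24 without 4), where 650, 1016, 403 and 1058 of all genes were lower and 994, 1119, 642 and 1355 higher for numbers 1 to 4, and 3, *Hsph1*, *Cct3* and *Hspd1*, fell in all 4. The cause was not tested.

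The sign of several small fold changes was not stable. *Dnajb6* was at 0.0036 with upper-quartile factors. *Bag1*, *Dnajb1* and *Hsf2* were at -0.035, -0.045 and 0.066 with the trend removed and at -0.037, -0.045 and 0.068 with the trend removed and the block. With single samples left out, *Dnajb6* ran from -0.0534 to 0.0138 (at 0.0066 and 0.0138 without DMSO replicates 3 and 4, and at 0.0038 when IOX5 replicate 2 was left out), *Hsf2* from -0.0788 to 0.0454 (0.0454 and 0.0258 without DMSO replicates 3 and 4), *Dnaja1* from -0.126 to 0.0223, *Cdc37* from -0.0929 to 0.0052 and *Dnaja3* from -0.0888 to 0.0427 (each highest without IOX5 replicate 2), and *Dnajb1* from -0.0138 (without IOX5 replicate 4) to 0.0579. In the paired fit, *Dnaja1*, *Dnajb6*, *Cdc37* and *Dnaja3* were at 0.0018, 0.0066, 0.0021 and 0.040 without number 2, *Dnajb6* and *Hsf2* at 0.013 and 0.038 without number 3, and *Hsf2* at 0.0098 without number 4. The difference of the log2 *Hspd1* to *Hspe1* ratio, -0.188, had p = 0.125 by exact sign flips over the 4 pairs, the smallest that test allows, and ran from -0.221 to -0.123 with single samples left out. That of *Fkbp5* to *Fkbp4* ran from 0.282 to 0.439, that of *Hsp90aa1* to *Hsp90ab1* from -0.067 to 0.002 (above 0 without DMSO replicate 3, at 0.001, or 4) and that of *Hspa1a* plus *Hspa1b* to *Hspa8* from -0.086 to 0.099 (above 0 without DMSO replicate 3 or, at 0.037, without IOX5 replicate 1). Depth limits *Hspa1a*, with 5 to 12 reads per sample, and *Hspb1*.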
